A study of Mus musculus with 32 samples.

Results

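The genes described here are the components through which Gq-coupled receptors act: the alpha subunits Gnaq and Gna11, the 4 phospholipase C beta genes Plcb1, Plcb2, Plcb3 and Plcb4, the diacylglycerol-responsive genes Rasgrp3, Prkcd and Prkce, and the receptor gene Cysltr2. They were chosen by name for their roles, and all 10 were found among the 50376 named genes of the expression table. All 10 passed the filter on low counts and were among the 17717 genes tested. RNA was sequenced from 32 primary mouse melanomas in 4 groups of 8, Ecad male, Ecad female, ΔEcad male and ΔEcad female. All mice carried the Tyr::NrasQ61K transgene, in which the tyrosinase promoter expresses mutant NRAS in melanocytes, were heterozygous for loss of Cdkn2a and carried floxed Cdh1 on both alleles (Cdh1F/F). The Ecad mice lacked Cre, and the ΔEcad mice carried Tyr::Cre, so that Cdh1, the gene of E-cadherin, is deleted in melanocytes only and other cells of the tumour keep it. The label of the ΔEcad tumours writes Tyr::NRAS/° at the place where the methods of the study give Tyr::CreA/°. The background was C57BL/6J, and the ages of the mice were not given in the sources used here.

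In this pathway, an activated receptor loads the Gq or G11 alpha subunit with GTP, and the alpha subunit then binds and activates phospholipase C beta at the plasma membrane. Phospholipase C beta cleaves phosphatidylinositol bisphosphate into inositol trisphosphate, which releases calcium, and diacylglycerol, which recruits protein kinase C delta and epsilon (Prkcd, Prkce) and the Ras activator RasGRP3 (Rasgrp3). Gq signalling is a known driver of melanocytic tumours of the eye, where activating mutations fall in GNAQ, GNA11, CYSLTR2 or PLCB4, and GRPR, the receptor of gastrin-releasing peptide studied in these mice, couples to Gq. The comparisons below are of RNA levels and do not measure the activity of the pathway.

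Total counts ranged from 24036333 to 63923086 per tumour. Cdh1, the targeted gene, lay at 25.0 to 282 TPM (read abundance scaled for gene length and depth) in males and 2.16 to 151 in females among the Ecad tumours, and 0.79 to 65.2 in males and 0.17 to 143 in females among the ΔEcad tumours. Its log2 fold change between ΔEcad and Ecad was -3.33 in males (adjusted P = 0.365) and -0.0024 in females (adjusted P = 0.999), so that in females the level of Cdh1 in the whole tumour did not separate the groups, which are named here as labelled. Keratinocytes also express Cdh1, and the levels of 6 keratinocyte genes were summed. Among females, the median of this sum was 1.31 TPM for the Ecad group and 6050 TPM for the ΔEcad group. Among males, the medians were 4092 TPM for the Ecad group and 434 TPM for the ΔEcad group, lower in ΔEcad as Cdh1 was. The part of keratinocytes in the Cdh1 levels of either sex was not tested. Dct and Mlana, which define melanocytes, were at 1466 TPM or more and 564 TPM or more in all tumours except ΔEcad male 7, where they were at 4.98 and 7.47 TPM. Another 3 tumours stood apart: ΔEcad male 2 held 0 counts of Y-linked genes and 1752 counts of Xist, ΔEcad female 1 held 92 counts of Y-linked genes where the 6 ΔEcad females not set apart held 0 to 1, and ΔEcad female 3 had haemoglobin genes at 0 TPM where those 6 had 1007 or more. Without these 4 tumours, as with them, 0 of the 10 members were called in the comparisons that follow. In whole tumours, fewer cells of a type and less RNA per cell cannot be told apart.

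On the TPM scale, which corrects for gene length and so allows genes to be compared, the members covered a range from 123 to below 1. Gna11 had the highest mean level, 123 ± 52.5 TPM (SD, n = 32), followed by Plcb3 at 76.6 ± 31.8. Rasgrp3 came next by its mean of 52.8 ± 122, but its median was 16.2 and it lay above Gnaq, at 33.4 ± 15.2, in 11 of 32 tumours. Prkcd, at 29.6 ± 17.4, was below Gnaq in 21 tumours, so the order of Rasgrp3, Gnaq and Prkcd was not fixed beyond the spread between tumours. Plcb4 followed at 14.4 ± 14.2 TPM and Prkce at 6.99 ± 4.23, with Plcb4 the higher in 22 tumours. Plcb2 at 2.18 ± 2.01, Plcb1 at 1.16 ± 1.43 and Cysltr2 at 0.533 ± 0.520 were at the foot of the order, and Cysltr2 had 3 counts or fewer in 12 of 32 tumours, which is at the limit of detection at this depth. The plot of member levels shows these ranges by group.

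**Figure D1:**
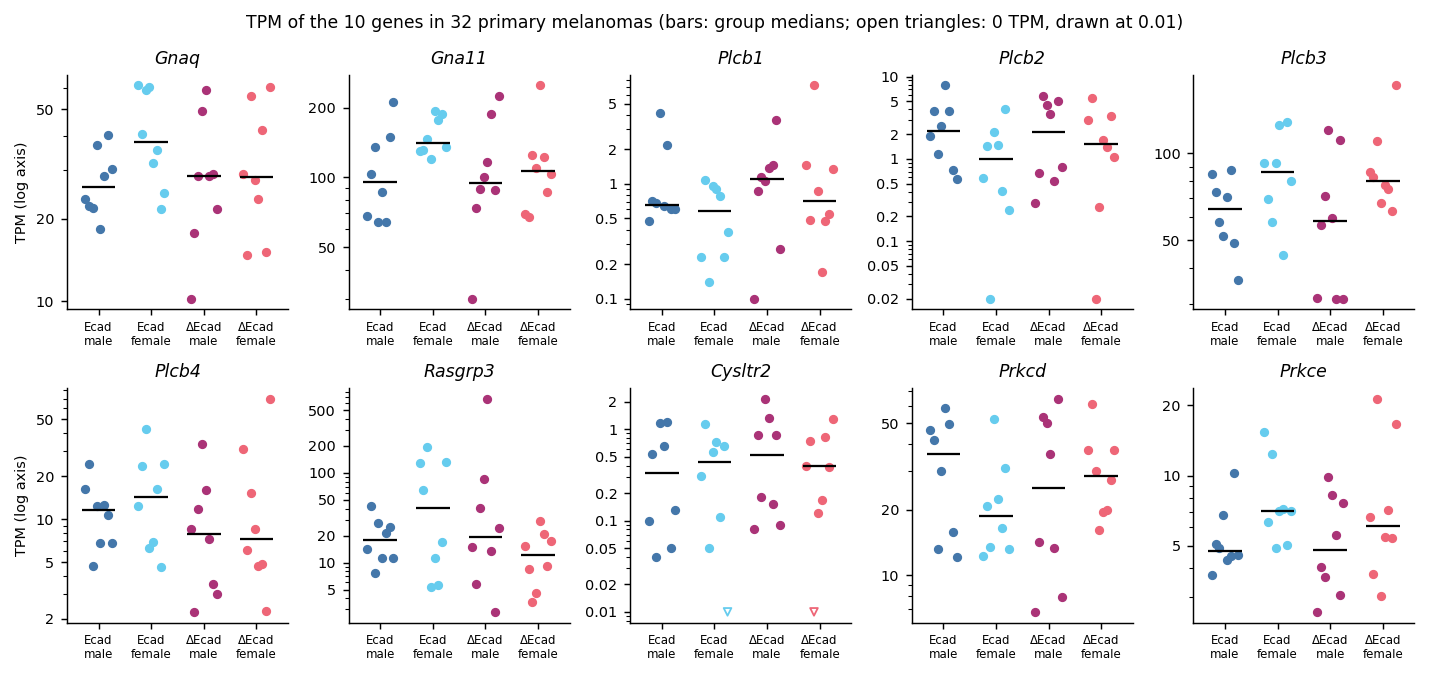
Level of each of the 10 genes in each of the 32 tumours, in TPM on a log axis, with 1 point per tumour and the median of each group of 8 as a line, and values of 0 drawn as open triangles. The groups overlap for each of the 10 genes, which was not computed over all genes. Gna11 lies between 30.0 and 250 TPM, and 1 ΔEcad male tumour has Rasgrp3 at 674 TPM.

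None of the 10 genes was called different in any of 5 comparisons by edgeR's quasi-likelihood test, with a call set at an adjusted P under 0.05 and a log2 fold change beyond 1 in either direction. Among all 17717 genes, the share called was 1.20% between ΔEcad and Ecad females, 0% between ΔEcad and Ecad males, 0% for the interaction of genotype and sex, 0.0508% between Ecad females and Ecad males and 0.0395% between ΔEcad females and ΔEcad males. Leaving out 1 tumour moved the first of these shares between 0.00557% (without Ecad female 1) and 3.87% (without ΔEcad female 4) and that of the interaction between 0% and 4.73% (without ΔEcad male 3). At an unadjusted P under 0.05, which passes 15.3% of all genes between ΔEcad and Ecad females, 10.2% in males, 17.7% for the interaction, 16.0% between the sexes in Ecad and 8.81% in ΔEcad, the members passed in 1, 1, 1, 3 and 1 cases of 10, and Rasgrp3 was among them each time. The median log2 fold change of the members between ΔEcad and Ecad was -0.04 in females, beside -0.02 for all genes, and 0.20 in males, beside 0.11. Between females and males it was 0.52 in Ecad, beside 0.05 for all genes, and -0.03 in ΔEcad, beside -0.06. The summed keratinocyte genes had a median of 4092 TPM in Ecad males and 1.31 TPM in Ecad females. The summed level of 5 skeletal muscle genes had medians of 2067 and 12.2 TPM in the same groups. The part of these tissues in the differences between the sexes was not tested. For every member, the ranges of TPM overlapped in all 4 comparisons of 2 groups. The share of all genes with such an overlap was not computed, so this does not set the members apart.

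**Figure D2:**
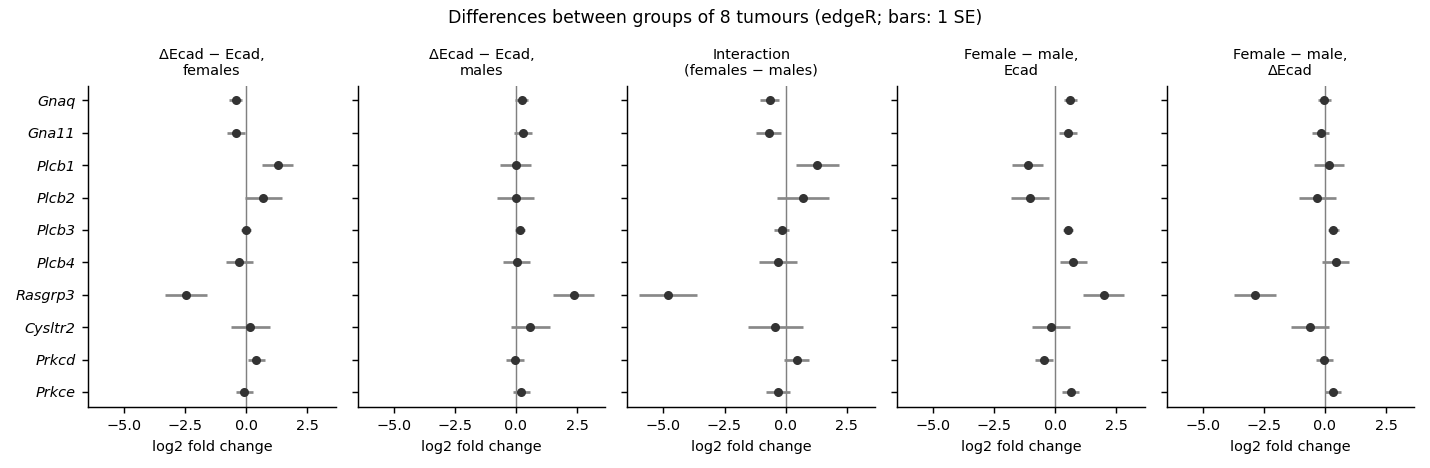
Log2 fold change of each of the 10 genes from edgeR on counts, for the 4 comparisons of 2 groups and for the interaction of genotype and sex. Bars are standard errors derived from the F statistic of the test. No value was called, and Rasgrp3 lies farthest from 0, at -2.46 for ΔEcad against Ecad females, 2.36 for males and -4.82 for the interaction.

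The alpha subunit genes came first. Gnaq, on chromosome 19 (GRCm38 chr19:16132831-16387463, forward strand), had a lowest, median and highest level of 18.4, 26.1 and 40.5 TPM in males and 21.6, 38.1 and 61.3 in females among the Ecad tumours, and 10.2, 28.6 and 59.0 in males and 14.7, 28.3 and 60.2 in females among the ΔEcad tumours. The Ecad females had the highest median, and the ranges of all 4 groups overlapped. The log2 fold change of Gnaq between Ecad females and Ecad males was 0.62 (SE 0.27, adjusted P = 0.245), and between ΔEcad and Ecad females it was -0.42 (SE 0.27, adjusted P = 0.494). Gna11, on chromosome 10 (chr10:81528724-81545190, reverse strand), encodes the close relative G11. Its lowest, median and highest levels were 64.4, 95.1 and 212 TPM in males and 121, 141 and 194 in females among the Ecad tumours, and 30.0, 95.0 and 224 in males and 67.2, 107 and 250 in females among the ΔEcad tumours. The highest level of Gna11 was in ΔEcad female 5 and the lowest in a ΔEcad male. Its log2 fold change between ΔEcad and Ecad was -0.41 in females (SE 0.36, adjusted P = 0.668) and 0.28 in males (SE 0.36, adjusted P = 0.786).

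Gna11 exceeded Gnaq in all 32 tumours. The ratio of Gnaq to Gna11 TPM ran from 0.0939 in ΔEcad female 5 to 0.584 in ΔEcad female 8, with a mean of 0.304 ± 0.145 (SD, n = 32). Both extremes of the ratio were in the same group, and the group means of the log2 ratio were close, at -1.91 in males and -1.95 in females among the Ecad tumours, and -1.87 in males and -1.86 in females among the ΔEcad tumours. By two-sided exact permutation tests over all splits of 8 against 8, the difference in the log2 ratio was 0.09 between ΔEcad and Ecad females (P = 0.831) and 0.04 in males (P = 0.915). Between females and males it was -0.04 in Ecad (exact permutation P = 0.925) and 0.01 in ΔEcad (exact permutation P = 0.981), and all 4 had an adjusted P of 0.981. The transcripts of Gnaq and Gna11 shared no run of 50 bases, so reads of 100 bases could be assigned to one or the other. Across the tumours the levels of Gnaq and Gna11 had a Spearman rho of 0.35, given as a description over libraries that share tissue makeup.

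The phospholipase C beta genes were led by Plcb3 in every tumour. Plcb3 lies at chr19:6952325-6976470 on the reverse strand and overlaps Ppp1r14b on the other strand. It made up 57.3% of the summed Plcb1 to Plcb4 TPM in Ecad female 3, 93.7% in ΔEcad male 2 and 81.8% ± 8.90 on average (SD, n = 32). Plcb4 was second on average with 14.6% ± 9.36, from 2.85% in ΔEcad male 7 to 42.6% in Ecad female 3, while Plcb2 averaged 2.36% and Plcb1 1.28%. The summed level of the 4 genes ran from 35.5 to 245 TPM. The share of Plcb4 averaged 14.6% in males and 17.9% in females among the Ecad tumours, and 13.5% in males and 12.2% in females among the ΔEcad tumours. The largest of the 4 differences was -5.64 percentage points between ΔEcad and Ecad females (two-sided exact permutation P = 0.379), and the adjusted P of all 4, over 8 tests with the ratio above, was 0.981.

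**Figure D3:**
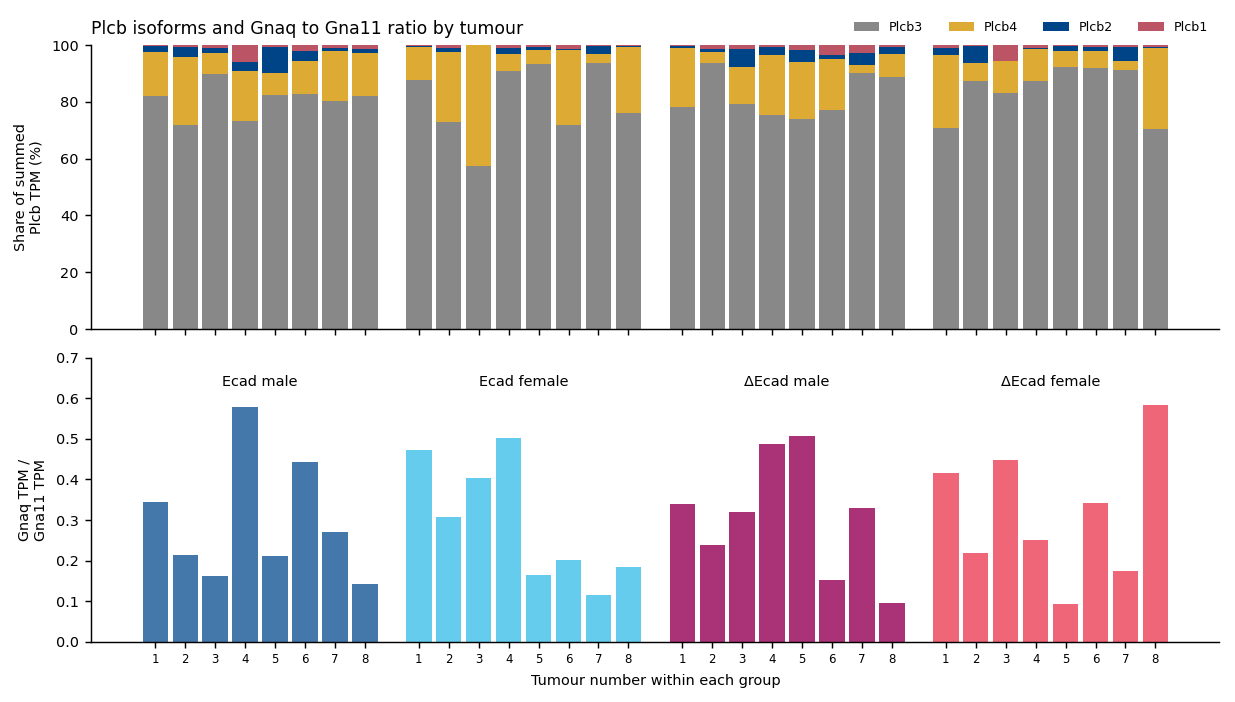
Share of each of Plcb1, Plcb2, Plcb3 and Plcb4 in their summed TPM, in percent, with 1 stacked bar per tumour, ordered by group. Plcb3 is the widest segment in all 32 tumours, from 57.3% to 93.7%.

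Plcb3 had a lowest, median and highest level of 36.5, 64.2 and 87.9 TPM in males and 44.5, 86.5 and 129 in females among the Ecad tumours, and 31.4, 58.1 and 120 in males and 63.2, 80.2 and 172 in females among the ΔEcad tumours. The medians of both female groups were above those of both male groups. The log2 fold change of Plcb3 between females and males was 0.52 in Ecad (SE 0.21, adjusted P = 0.209) and 0.35 in ΔEcad (SE 0.21, adjusted P = 0.643), neither of which passed the test. Between ΔEcad and Ecad it was 0.0018 in females (SE 0.21, adjusted P = 0.999) and 0.17 in males (SE 0.21, adjusted P = 0.779), the smallest standard errors among the 10 genes.

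Plcb4, at chr2:135659011-136014593 on the forward strand and a neighbour of Plcb1, is the member of the family mutated in uveal melanoma. Its lowest, median and highest levels were 4.73, 11.6 and 24.2 TPM in males and 4.62, 14.4 and 43.0 in females among the Ecad tumours, and 2.24, 7.89 and 33.6 in males and 2.28, 7.29 and 70.2 in females among the ΔEcad tumours. The spread within each group was wider than the distance between medians. The log2 fold change between ΔEcad and Ecad females was -0.29 (SE 0.56, adjusted P = 0.878), 0.16 without Ecad female 3 and -0.92 without ΔEcad female 8.

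Plcb1, at chr2:134786067-135475258, and Plcb2, at chr2:118707517-118728438, were low throughout. Plcb1 lay at 0.47 to 4.11 TPM in males (median 0.66) and 0.14 to 1.09 in females (median 0.58) among the Ecad tumours, and 0.10 to 3.64 in males (median 1.10) and 0.17 to 7.25 in females (median 0.71) among the ΔEcad tumours. The value of 7.25 belonged to ΔEcad female 3, and the log2 fold change of Plcb1 between ΔEcad and Ecad females, 1.29 (SE 0.64, adjusted P = 0.329), was 0.34 without that tumour. Plcb2, the form known from blood cells, lay at 0.57 to 7.85 TPM in males (median 2.19) and 0.02 to 3.98 in females (median 1.00) among the Ecad tumours, and 0.29 to 5.87 in males (median 2.13) and 0.02 to 5.51 in females (median 1.53) among the ΔEcad tumours. Its 2 lowest values rested on 3 counts in Ecad female 3 and 2 counts in ΔEcad female 3. The log2 fold change of Plcb2 between ΔEcad and Ecad females was 0.70 (SE 0.76, adjusted P = 0.749).

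Among the genes that respond to diacylglycerol, Rasgrp3 varied most. Rasgrp3, at chr17:75435896-75529054 on the forward strand, encodes an exchange factor that activates Ras and is known to act downstream of mutant GNAQ and GNA11. It lay at 7.57 to 42.5 TPM in Ecad males, with a median of 17.9. In Ecad females it reached 64.1, 128, 132 and 196 TPM in 4 tumours and was at 5.36, 5.55, 11.1 and 17.2 TPM in the other 4. The Ecad females thus formed a high and a low set of equal size, and only their high set exceeded all Ecad males. The ΔEcad males lay at 2.82 to 85.7 TPM except ΔEcad male 5, which had 674 TPM from 39990 counts, and their median was 19.5. The ΔEcad females lay at 3.64 to 29.4 TPM with a median of 12.2, and all 8 were below the Ecad female median of 40.6.

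The log2 fold change of Rasgrp3 was -2.46 between ΔEcad and Ecad females (SE 0.85, adjusted P = 0.112) and 2.36 between ΔEcad and Ecad males (SE 0.84, adjusted P = 0.426). Without ΔEcad male 5, the value in males was 0.61 (adjusted P = 0.750). The difference between these 2 effects, the interaction of genotype and sex, was -4.82 (SE 1.19, unadjusted P = 0.00033, adjusted P = 0.0526) and narrowly missed the call. It was -3.08 without ΔEcad male 5 (adjusted P = 0.0953). Leaving out each of the 32 tumours in turn, edgeR called the interaction in 8 cases (without Ecad male 3 or 7, Ecad female 5, ΔEcad male 3 or ΔEcad female 3, 4, 5 or 8), with an adjusted P between 0.0199 and 0.115. These 8 fits called 312 to 848 of all genes tested in the interaction (at most 4.73%). In the edgeR fit of all 32 tumours, the lowest adjusted P of any gene in the interaction was 0.0509. With limma voom the interaction of Rasgrp3 was -2.28 (adjusted P = 0.172). DESeq2 called Rasgrp3 between ΔEcad and Ecad females (-2.45, adjusted P = 0.0210) and in the interaction (-4.75, adjusted P = 0.00150), where DESeq2 called 7.23% and 6.91% of all genes. Between females and males, Rasgrp3 differed by 1.97 in Ecad (SE 0.83, adjusted P = 0.230) and by -2.85 in ΔEcad (SE 0.86, adjusted P = 0.484), and the latter was -1.10 without ΔEcad male 5.

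Prkcd, at chr14:30595354-30626210 on the reverse strand, encodes protein kinase C delta. Its lowest, median and highest levels were 12.1, 35.9 and 58.5 TPM in males and 12.3, 18.6 and 52.5 in females among the Ecad tumours, and 6.77, 25.0 and 64.9 in males and 16.1, 28.6 and 61.5 in females among the ΔEcad tumours. The Ecad females had the lowest median, and the log2 fold change of Prkcd between ΔEcad and Ecad females was 0.41 (SE 0.36, adjusted P = 0.668). Prkce, at chr17:86167785-86657919 on the forward strand, encodes protein kinase C epsilon and was lower than Prkcd on average. It lay at 3.75, 4.72 and 10.3 TPM in males and 4.89, 7.04 and 15.3 in females among the Ecad tumours, and 2.60, 4.82 and 9.83 in males and 3.04, 6.05 and 21.4 in females among the ΔEcad tumours. The log2 fold change of Prkce was -0.08 between ΔEcad and Ecad females (SE 0.34, adjusted P = 0.953) and -0.37 without ΔEcad female 3. Of the 50-base words of Prkce, 5.47% were shared with other transcripts, mostly an unspliced transcript within the gene, and no other member exceeded 0.464%.

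Cysltr2, at chr14:73025603-73049114 on the reverse strand, encodes the cysteinyl leukotriene receptor that couples to Gq. It lay at 0.04, 0.33 and 1.19 TPM in males and 0, 0.435 and 1.14 in females among the Ecad tumours, and 0.08, 0.52 and 2.17 in males and 0, 0.395 and 1.28 in females among the ΔEcad tumours. It had 367 counts over all 32 tumours, and its log2 fold change between ΔEcad and Ecad was 0.16 in females (SE 0.79, adjusted P = 0.958) and 0.59 in males (SE 0.79, adjusted P = 0.799).

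The tumours hold cells other than melanocytes, so the members were set against the mean log2 CPM of marker genes of 12 cell types. Of 120 relations over the 32 tumours, 20 passed both Pearson's r and Spearman's rho after adjustment (permutation tests with 100000 orders, whose smallest P is 1e-05). Of these, 9 also passed after the group means were subtracted, and 8 passed in all 5 ways in which the relations were computed (as given, on log2(TPM + 1), with group means subtracted, without the 2 farthest tumours and without the 4 that stood apart). Plcb2 and Cysltr2 rose with immune markers, and Plcb2 with others too. Plcb2 rose with the macrophage genes (r = 0.83, rho = 0.79, adjusted P = 0.0004 and 0.0006) and with the T cell genes (r = 0.82, rho = 0.78, with the same adjusted permutation P). Leaving out the 2 tumours whose score was farthest from its median, r was 0.74 and 0.76. Cysltr2 rose with the macrophage genes (r = 0.72, rho = 0.62, adjusted permutation P = 0.0004 and 0.0048) and with the T cell genes (r = 0.64, rho = 0.59, adjusted permutation P = 0.0022 and 0.00622), with r at 0.60 and 0.57 without the 2 farthest tumours. Plcb2 also passed both tests with the mast cell (r = 0.56, rho = 0.57), fibroblast (r = 0.51, rho = 0.62), skeletal muscle (r = 0.51, rho = 0.51) and adipocyte genes (r = 0.49, rho = 0.53), each in 2 or 3 of the 5 ways. The summed level of the 6 macrophage genes ranged from 193 to 1403 TPM in males and 59.6 to 823 in females among the Ecad tumours, and 74.5 to 1396 in males and 26.9 to 749 in females among the ΔEcad tumours. Of the 6, Adgre1 and Fcgr1 were at 0 in ΔEcad female 3, as were all 5 T cell genes, and no macrophage gene was at 0 elsewhere. The part of these cells in the values of Plcb2 and Cysltr2 was not tested.

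**Figure D4:**
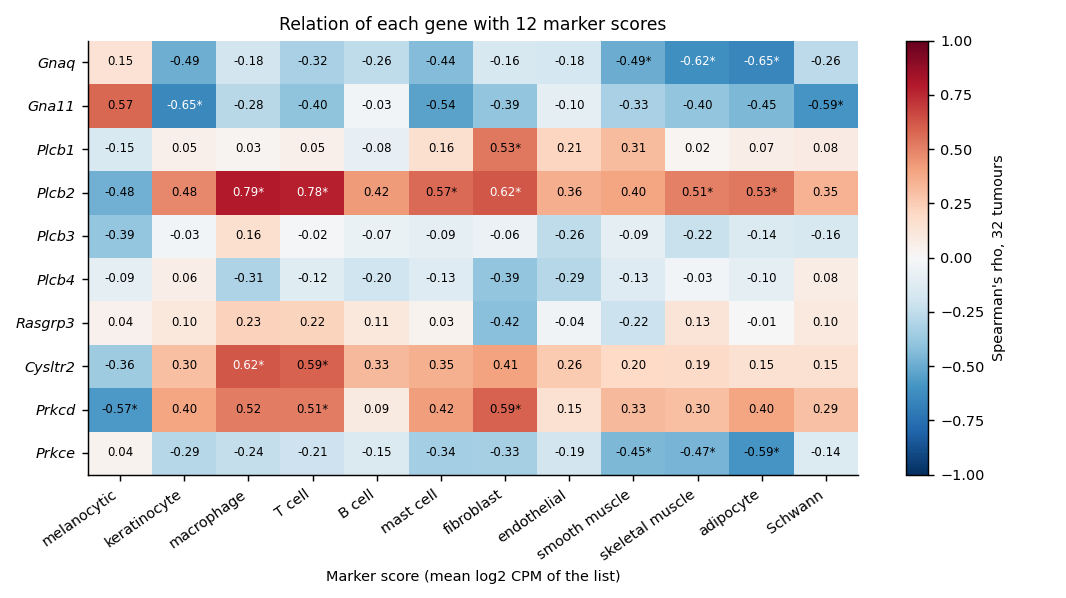
Spearman's rho over the 32 tumours between each of the 10 genes and each of 12 marker scores, as a heat map in which an asterisk marks the 20 relations past both tests. Plcb2 with the macrophage score (0.79) is the highest value, and the rows of Plcb3, Plcb4 and Rasgrp3 hold no asterisk.

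Gnaq and Prkce ran opposite to adipocyte and muscle markers, and Prkcd rose with fibroblast markers. Gnaq fell with the adipocyte genes (r = -0.67, rho = -0.65, adjusted permutation P = 0.0012 and 0.0039) and with the skeletal muscle genes (r = -0.64, rho = -0.62, adjusted permutation P = 0.0022 and 0.0054), and without the 2 farthest tumours r was -0.59 and -0.61. Prkce fell with the adipocyte genes (r = -0.58, rho = -0.59, adjusted permutation P = 0.00775 and 0.00622, r = -0.61 without the 2 farthest tumours). Prkcd rose with the fibroblast genes (r = 0.57, rho = 0.59, adjusted permutation P = 0.0080 and 0.0054, r = 0.51 without the 2 farthest tumours) and with the T cell genes (r = 0.46, rho = 0.51, adjusted permutation P = 0.0391 and 0.0203, past in 4 of the 5 ways). Gna11 fell with the keratinocyte genes (r = -0.53, rho = -0.65, adjusted permutation P = 0.0171 and 0.0039), but not past both tests once the group means were subtracted (r = -0.44). The remaining relations past both tests were those of Gna11 with the Schwann cell genes (r = -0.52), Plcb1 with the fibroblast genes (r = 0.59), Gnaq with the smooth muscle genes (r = -0.61) and Prkce with the smooth and skeletal muscle genes (r = -0.49 and -0.52). For Plcb3, Plcb4 and Rasgrp3 no relation passed both tests, and neither the B cell nor the endothelial genes were related to a member by both. The 6 fibroblast genes were above 0 in all tumours, with a summed level of 57.8 to 9166 TPM, and the 4 adipocyte genes summed to 0.08 to 1517 TPM, with Lep at 0 in 9 tumours. The part of these cells in the values of the members was not tested.

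**Figure D5:**
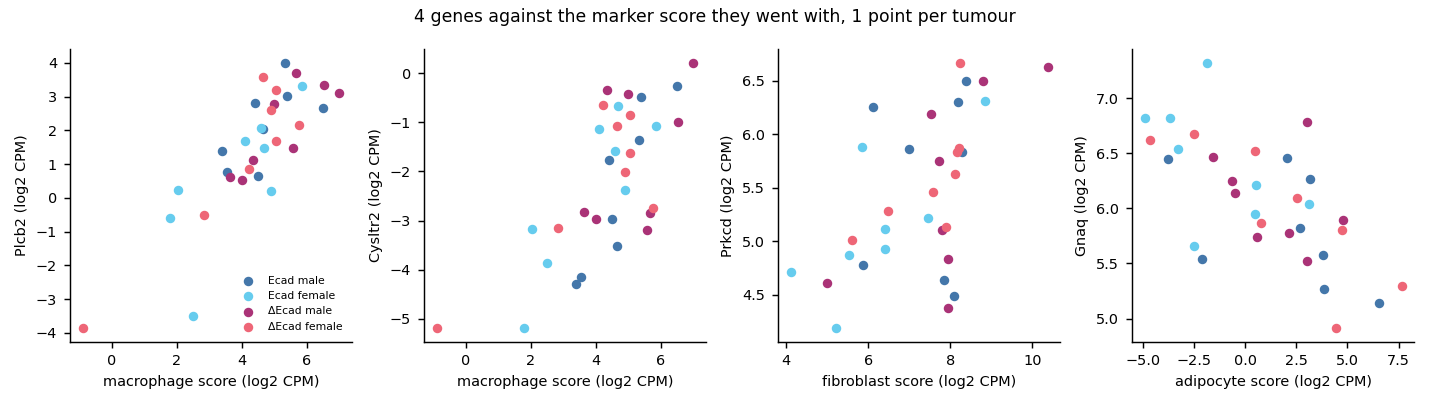
Log2 CPM of Plcb2 and Cysltr2 against the macrophage score, of Prkcd against the fibroblast score and of Gnaq against the adipocyte score, with 1 point per tumour coloured by group. Pearson's r is 0.83, 0.72, 0.57 and -0.67, and points of all 4 groups lie along each trend.

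With the melanocytic genes, only Prkcd passed both tests, falling as they rose (r = -0.48, rho = -0.57, adjusted permutation P = 0.00493 and 0.0066). Without the 2 farthest tumours, which included ΔEcad male 7, r was -0.55, and on log2(TPM + 1) the relation was lost (r = -0.39, adjusted permutation P = 0.0549). Gna11 passed by rank only, rising with these genes (rho = 0.57, adjusted permutation P = 0.00677, r = 0.35), as did Plcb2, falling (rho = -0.48, adjusted permutation P = 0.0339, r = -0.23). The promoters of these 3 genes are shown because melanocytic genes are known to carry the E-box words CACGTG and CATGTG (or CACATG, the same word on the other strand), which the melanocyte factor MITF binds. Each window holds 250 bases before and 50 bases after the start of the gene from RefSeq (GRCm38.p6, all 3 on the reverse strand), 5′ to 3′, with these words in capitals, at chr14:30626159-30626458 for Prkcd, chr10:81545113-81545412 for Gna11 and chr2:118728389-118728688 for Plcb2.
Prkcd: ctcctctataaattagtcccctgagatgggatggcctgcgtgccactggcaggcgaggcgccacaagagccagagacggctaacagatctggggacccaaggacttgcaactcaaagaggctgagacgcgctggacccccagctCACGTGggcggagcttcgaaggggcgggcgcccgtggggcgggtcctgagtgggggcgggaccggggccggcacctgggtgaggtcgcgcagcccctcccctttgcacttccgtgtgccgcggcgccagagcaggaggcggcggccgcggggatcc
Gna11: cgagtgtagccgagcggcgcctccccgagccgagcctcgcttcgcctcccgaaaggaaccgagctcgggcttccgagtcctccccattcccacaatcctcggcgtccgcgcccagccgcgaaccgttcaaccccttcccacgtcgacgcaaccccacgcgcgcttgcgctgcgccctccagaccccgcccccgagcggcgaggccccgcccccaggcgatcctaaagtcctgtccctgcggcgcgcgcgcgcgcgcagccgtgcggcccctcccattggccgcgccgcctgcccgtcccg
Plcb2: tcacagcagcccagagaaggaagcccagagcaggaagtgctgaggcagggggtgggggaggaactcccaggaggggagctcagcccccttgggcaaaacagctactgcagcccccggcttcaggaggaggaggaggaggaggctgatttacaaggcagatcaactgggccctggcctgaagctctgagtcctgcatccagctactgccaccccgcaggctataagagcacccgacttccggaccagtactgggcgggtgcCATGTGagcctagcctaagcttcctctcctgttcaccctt
In the windows shown, Prkcd held 1 CACGTG, Plcb2 held 1 CATGTG and Gna11 held neither, searched on both strands. A second window of Prkcd, at chr14:30610261-30610560, held neither. Rasgrp3, which passed both tests with no marker list, held 1 CACATG in the first of its 2 windows. Among 32851 promoter windows of the same length, CACGTG was in 7.15% and CACATG or CATGTG in 14.2%, and a match is a description and not evidence of binding.

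Over the 8 ΔEcad females, which alone expressed Grpr in all tumours (3.52 to 263 TPM, median 52.3, against at most 0.34 in Ecad females and 5.14 in ΔEcad males), no member was related to Grpr after adjustment over the 10 genes. Plcb2 came nearest (r = -0.77, exact permutation P = 0.0144, adjusted 0.144, and rho = -0.88, exact permutation P = 0.00724, adjusted 0.0724). Its r was -0.67 once ΔEcad females 2 and 7, the 2 tumours with Grpr farthest from its median on log2 CPM, were left out. Both had the lowest Grpr of the group. The tumour with the highest Grpr, ΔEcad female 3, stayed in and held 2 counts of Plcb2. Gnaq had an r of 0.77 (exact permutation P = 0.0294, adjusted 0.147) and a rho of 0.83 (exact permutation P = 0.0154, adjusted 0.0769). Without ΔEcad females 2 and 7 its r was 0.23 and its rho 0.60. Plcb4 had an r of 0.73 (exact permutation P = 0.0440, adjusted 0.147).

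Among themselves, the members did not move as 1 set. Of 45 pairs, Plcb2 and Prkcd were the most alike over the 32 tumours (rho = 0.81), followed by Gnaq and Prkce (rho = 0.67) and Plcb2 and Cysltr2 (rho = 0.58), whereas Gna11 and Prkcd ran opposite (rho = -0.61). These values are descriptions over libraries that share tissue makeup. Among all genes tested, the 3 with the pattern most like that of Plcb2 were Cd37, Myo1g and Arhgap45 (rho = 0.93 each), genes of white blood cells. For Gna11 they were Clptm1, Akt1 and Aph1a (rho = 0.93, 0.91 and 0.90), for Gnaq Fmnl2, Golph3 and Acbd3 (0.88 each) and for Rasgrp3 Mgat4a, 5031439G07Rik and Hpse (0.80, 0.77 and 0.77). For Plcb3 the highest rho was 0.66, with Yeats2, and for Plcb4 it was 0.77, with Wapl. Prkcd was most like Psd4 (0.88), Prkce March6 (0.79), Plcb1 Dkk2 (0.81) and Cysltr2 Klra17 (0.84).

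The rest of the pathway was taken as 7 lists with 105 genes, of which 102 were tested. Between ΔEcad and Ecad females, 2 of the 102 were called, beside 1.20% of all genes. Both were receptors coupled to Gq, which made up 30 of the 102. Grpr was higher (log2 fold change 10.19, SE 1.36, adjusted P = 0.000340), on at most 10 counts per Ecad female tumour, and Grm5, a metabotropic glutamate receptor, was lower (-6.40, SE 1.67, adjusted P = 0.0497). The call of Grm5 lay at the threshold and was lost without the 4 tumours that stood apart (-7.28, adjusted P = 0.0612), with limma voom (-3.46, adjusted P = 0.218), with tumour number as a block (-5.90, adjusted P = 0.129), with only the tumours compared (-6.41, adjusted P = 0.176), with marker scores as covariates (-7.16, adjusted P = 0.309) and on log2(TPM + 1) (-1.36, adjusted P = 0.336). Of the 32 tumours left out in turn, 19 ended it, namely all Ecad females except 5, ΔEcad females 1, 2, 3, 6, 7 and 8, Ecad males 1, 4, 5 and 8 and ΔEcad males 2 and 5, with the adjusted P of Grm5 between 0.0334 and 0.120. The call of Grm5 was kept with DESeq2 (-6.35, adjusted P = 8.5e-07), which called 7.23% of all genes. In edgeR it was kept with DESeq2 size factors (adjusted P = 0.0488), with no filter (adjusted P = 0.0473) and without the robust option (adjusted P = 0.0487). The call of Grpr in females held under each of these settings. Grm5 lay between 0.02 and 23.8 TPM in Ecad females (median 0.635) and between 0.01 and 0.35 in ΔEcad females (median 0.035). Grpr was also called higher between ΔEcad females and ΔEcad males (6.43, adjusted P = 0.0080), but not with only the tumours compared (adjusted P = 0.242) or with the block (adjusted P = 0.157). By edgeR none of the 102 was called in males, in the interaction or between the sexes in Ecad. DESeq2 called 11.8% of the 102 in females (beside 7.23% of all genes), 7.8% in the interaction (beside 6.91%) and 0% in males. Between the sexes in Ecad DESeq2 called 7.8%, where it called 1023 of 17717 genes. In edgeR, 22.5% passed an unadjusted P under 0.05 in the interaction, beside 17.7% of all genes. Between the sexes this was 20.6% in Ecad (beside 16.0%) and 8.8% in ΔEcad (beside 8.81%). At an unadjusted P under 0.05, the genes of the lists that passed were 20 higher and 2 lower in ΔEcad against Ecad females (21.6%, beside 15.3% of all genes) and 10 higher and 3 lower in males (12.7%, beside 10.2%). By list, in females, these were 8 higher and 1 lower of 30 receptors coupled to Gq, 5 higher of 10 other phospholipases C, 2 higher of 10 other alpha subunits, 2 higher of 13 regulators of Gq and 1 higher of 12 genes of calcium release. Among 18 other diacylglycerol effectors and kinases 2 were higher and 1 lower. The median log2 fold change was 0.88 for the receptors and 1.02 for the other phospholipases C, beside -0.02 for all genes, and lay between -0.26 and 0.26 for the other 4 of these lists. The summed keratinocyte genes given above also differed between these groups, and their part was not tested.

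Named by their level alone, the leading genes of 5 other lists were called in none of the comparisons. Gnai2, which inhibits adenylyl cyclase, was the most abundant of the other alpha subunits, at a median of 487 TPM in males and 563 in females among the Ecad tumours, and 549 in males and 500 in females among the ΔEcad tumours. Gnas, which stimulates the cyclase, had medians of 228, 282, 275 and 290 TPM in the same order of groups. Grk2, a kinase that shuts receptors off and also binds the Gq alpha subunit, lay at medians of 81.6, 67.5, 71.8 and 79.0 TPM. Plcg1, the phospholipase C that receptor tyrosine kinases activate, lay at medians of 34.6, 39.3, 32.8 and 34.2 TPM. Dgkz, which removes diacylglycerol by phosphorylating it, had medians of 57.4, 46.4, 43.3 and 48.6 TPM. The group medians of Itpkb, a kinase of inositol trisphosphate, lay between 42.3 and 54.2 TPM, and those of Orai1, the calcium channel opened when stores are empty, between 39.2 and 57.3. Those of Grk6 lay between 49.8 and 62.3 TPM and of Plcd1 between 17.4 and 29.9. Dgka, a second diacylglycerol kinase, had medians of 46.7, 17.6, 10.3 and 21.5 TPM.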

How the data were processed

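RNA of 32 tumours was made into stranded poly(A) libraries (TruSeq) and read as pairs of 100 bases. Per the methods, the authors mapped the reads to mm10 (GRCm38.p5, GENCODE M13) with STAR and made the matrices with it, and FastQC 0.11.5 is named in their processing notes. ComBat was used where applicable, which is not stated for these tumours. The deposited count table holds raw counts and the deposited TPM table the same genes scaled by the authors for length and depth. Of 50600 rows, 224 carried no gene name and were kept in the count table that was filtered and tested.

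Counts were tested with edgeR 4.0.16 (TMM, filterByExpr, robust quasi-likelihood, R 4.3.3) over all 32 tumours with Benjamini-Hochberg adjustment over 17717 genes, and a call needed an adjusted P under 0.05 and a log2 fold change beyond 1. The SE of an edgeR fold change is its absolute value divided by the square root of the quasi-likelihood F statistic. Alternatives used DESeq2 1.42.0, limma 3.58.1 and other settings, and 1 that left out 4 tumours was chosen after seeing the data. Members, lists and named genes (those called in a list, or else its 2 highest by TPM) were chosen with earlier results of these data known. The labels do not say that tumours came from separate mice, so P values measure only the spread between tumours. On simulated data of 17514 genes for ΔEcad against Ecad females, the test called 10.4%, 50.7% and 87.9% of genes changed by log2 1, 2 and 4. Marker scores were means of log2 CPM. Positions are from GENCODE M21 (GRCm38). The protein sequences of Gnaq and Gna11 were not compared. The values of 1 of the 7 lists are not reported here.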

Additional observations from a re-analysis of the deposited data

Results flagged for a closer look

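In groups of 8 tumours, a value was set aside when its gap to the next tumour, as a part of the range of the group on the log2 CPM scale, exceeded Dixon's critical value. Of 40 groups checked (10 genes in 4 groups), 2 met this, where chance gives about 1 in 20. For Gna11 in ΔEcad females, ΔEcad female 5 was highest, at 8.69 against 7.50 for the next tumour and 6.48 for the lowest, a gap of 0.535 of the range. For Plcb3 in ΔEcad females, ΔEcad female 8 was highest, at 7.58 against 7.10 for the next and 6.80 for the lowest, a gap of 0.616 of the range.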

How the results depend on the processing

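The count of members called was 0 in all 5 comparisons under every alternative except these: DESeq2 called 1 member (Rasgrp3) between ΔEcad and Ecad females and 1 (Rasgrp3) in the interaction, DESeq2 size factors in edgeR called 1 in the interaction (Rasgrp3, -4.75, adjusted P = 0.0494), and leaving out 1 tumour gave 0 to 1 in the interaction. Over the other alternatives, Rasgrp3 in the interaction had an adjusted P of 0.172 with limma voom, 0.433 with limma-trend on log2(TPM + 1) and 0.0991 without the 4 tumours that stood apart. With tumour number as a replicate block in edgeR, 0 members were called. Rasgrp3 then had -2.49 in females (adjusted P = 0.241) and -3.46 in the interaction (adjusted P = 0.235). Whether the numbers pair the tumours is not stated. Of 32 tumours, 1 correlated best with a tumour of its own number in another group, a check that cannot exclude a pairing.

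Of 120 marker relations, 20 passed both tests, 9 after subtracting group means, 23 on log2(TPM + 1), 17 without the 2 farthest tumours and 22 without the 4 tumours. Over all genes, calls between ΔEcad and Ecad females numbered 213 with edgeR and TMM, 1281 with DESeq2, 322 with DESeq2 size factors, 555 with no filter, 112 without the 4 tumours, 9 with marker scores as covariates and 1 each with limma voom, limma-trend, the block or only the tumours compared. Leaving out 1 tumour gave 1 to 695 calls, with 3 or fewer in 10 of 32 cases, and in the interaction 0 to 848, with calls in 10 of 32 cases. Between the sexes it gave 8 to 21 in Ecad and 7 to 8 in ΔEcad. Where 0 were called in the interaction, DESeq2 called 1225, no filter 284 and DESeq2 size factors 201. Between the sexes in Ecad, 9 calls became 1023 with DESeq2, 115 with limma voom and 17 with covariates. In ΔEcad, 7 became 24 with DESeq2 and 0 with only the tumours compared, and between ΔEcad and Ecad males 0 became 21 with DESeq2 and 1 with covariates. In the interaction, covariates gave 1. On log2(TPM + 1), the median of all genes between ΔEcad and Ecad males moved from 0.11 to -0.16. Signs of the members that did not pass changed in 68 of 960 values when 1 tumour was left out, 13 of 50 with covariates and 10 of 50 on log2(TPM + 1). The largest main estimates whose sign changed were 0.434, 1.03 and 0.310 in absolute log2 fold change, in the same order. That of 1.03 was Plcb2 between Ecad females and Ecad males (-1.03). With limma voom 6 of 50 changed, the largest at 0.608. Cysltr2 and the lowest values of Plcb2 were limited by depth.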

Other observations

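Of the 10 other phospholipase C genes, 5 were higher in ΔEcad than in Ecad females at an unadjusted P under 0.05, which passes 15.3% of all genes, and 0 were called by edgeR. In males 0 of the 10 passed, with a median log2 fold change of -0.13 beside 1.02 in females. In the edgeR interaction of genotype and sex, 4 of the 10 were higher at an unadjusted P under 0.05, beside 17.7% of all genes. The median of the 10 was 1.15 there, beside -0.16 for all genes. By edgeR 0 of the 10 were called in the interaction, and DESeq2 called 2, beside 6.91% of all genes. Between the sexes in Ecad, 4 of the 10 were lower at this limit (median -0.89), beside 16.0% of all genes that passed. The list was not tested as a set. Between ΔEcad and Ecad females DESeq2, which called 7.23% of all genes, called Plcd3 (log2 fold change 1.54), Plce1 (1.66) and Plch2 (4.63), for which edgeR gave adjusted P values of 0.112, 0.0866 and 0.0697. These 3 genes were chosen after their values were seen. The summed level of the 6 keratinocyte genes had a median of 1.31 TPM in Ecad females and 6050 in ΔEcad females, and their part in these values was not tested.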
